A study of Mus musculus with 20 samples.

Results

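The chromatin around 9 chemokine receptor genes, which steer blood cells into and out of the bone marrow or within lymphoid and other tissues, was examined in mouse Lin- bone marrow cells: Cxcr4, Ackr3, Cxcr2, Ccr1, Ccr2, Cx3cr1, Cxcr5, Ccr7, and Ccr9. The genes were chosen by name and not by any measured value. A ChIP-Seq peak belonged to a gene when it overlapped the GENCODE gene body or the 20 kb on either side of it. Peaks of 3 histone marks in 4 genotypes were counted for each gene apart. The 9 genes are among 21951 protein-coding genes, and their windows held 50 of the 29659 H3K27ac peaks of the WT list.

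Chemokine receptors sit in the cell membrane and signal through inhibitory G proteins when a chemokine binds, so that the cell moves toward the source of the chemokine. Stromal cells of the marrow release Cxcl12, and its receptor Cxcr4 holds stem and progenitor cells and immature neutrophils in the marrow, while Cxcr2 and Ccr2 favor the exit of neutrophils and monocytes. H3K4me1 marks enhancers and the flanks of promoters, H3K4me3 marks promoters, and H3K27ac, which the acetyltransferase p300 places, marks the active ones among both. Tet2 oxidizes methylated cytosine in DNA.

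All mice were C57BL/6 and carried floxed Ep300 alleles. WT mice were Ep300 fl/fl without Cre, Ep300Δ/Δ mice were Mx1-Cre;Ep300 fl/fl, Tet2-/- mice were Ep300 fl/fl;Tet2-/-, and Ep300Δ/ΔTet2-/- mice were Mx1-Cre;Ep300 fl/fl;Tet2-/-. All of them received poly(I:C), 3 doses of 10 μg/g, at 6 to 8 weeks of age. The Mx1 promoter answers interferon and is active in blood cells and in other tissues, so the deletion was not limited to progenitors. Lin- cells are what remains of the marrow after cells with surface markers of mature lineages have been removed, here with a purity above 80%, so both progenitors and left-over mature cells can contribute. In such bulk samples fewer cells with a mark cannot be told apart from less of the mark per cell.

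Each genotype and mark had 1 library, so no test between genotypes was possible, and none of the differences below has a replicate check. The 12 lists held between 18327 and 29659 peaks for H3K27ac, between 90738 and 107392 for H3K4me1, and between 25012 and 27807 for H3K4me3. The read depth is unknown, and the number of peaks in a list moves with depth, so a region that is missing from a list was not called there and may still carry signal below the threshold. Exact (Clopper-Pearson) 95% intervals are given for shares of regions and cover counting error only. Fold enrichment is over an H3 library and was computed for each list apart, so folds printed side by side describe each list and are not differences in amount, and percentiles give the place of a peak within its list. The cell identity was checked at promoters. H3K4me3 peaks lay at the stem and progenitor genes Kit, Cd34, Flt3, Gata2, Meis1, and Hlf in each genotype. Of 14 genes of mature lineages, between 6 and 7 had an H3K4me3 promoter peak and between 2 and 5 an H3K27ac promoter peak, the latter highest in WT (5) and lowest in Ep300Δ/ΔTet2-/- (2). Over all protein-coding genes the shares were between 61.9% and 63.1% for H3K4me3 and between 43.1% and 47.3% for H3K27ac. The WT library had peaks of both marks at Itgam, Csf1r, and Klrb1c, among others, and no peak of either at Cd3e, Cd3g, Cd8a, Ms4a1, Cd79a, Ly6g, Mmp8, or Ncr1. The part of mature cells in the results was not tested.

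The regions on which the account turns are shown as 300 bases around the H3K27ac summit, on the plus strand of GRCm38 (mm10). The Cxcr4 start and Cxcr5 regions are shown because they carried H3K27ac in all 4 genotypes, with percentiles of fold enrichment of 81.6 or more in each list. Both Cxcr4 upstream regions had H3K27ac in WT only, and the Cxcr4 downstream region had it in WT and Tet2-/- only. The Ccr1 region had it in all 4 genotypes, and the Cxcr2 region is the single H3K27ac region of that gene. None of these windows overlaps an annotated UTR. Capitals mark matches to short motifs, searched on both strands.
Cxcr4 start, chr1:128591339-128591638: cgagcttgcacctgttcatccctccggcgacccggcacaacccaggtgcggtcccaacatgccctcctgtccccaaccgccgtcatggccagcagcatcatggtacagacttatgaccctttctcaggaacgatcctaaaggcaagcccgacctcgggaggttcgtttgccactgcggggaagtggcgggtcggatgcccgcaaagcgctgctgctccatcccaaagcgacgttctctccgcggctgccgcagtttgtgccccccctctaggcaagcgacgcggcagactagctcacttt
Cxcr4 upstream, 13.5 kb, chr1:128605661-128605960: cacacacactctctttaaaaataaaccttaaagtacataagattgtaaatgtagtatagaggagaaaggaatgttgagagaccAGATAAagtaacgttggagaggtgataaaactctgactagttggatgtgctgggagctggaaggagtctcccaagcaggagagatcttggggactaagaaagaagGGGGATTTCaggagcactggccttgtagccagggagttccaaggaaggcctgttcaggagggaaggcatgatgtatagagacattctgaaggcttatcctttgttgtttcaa
Cxcr4 upstream, 15.7 kb, chr1:128607808-128608107: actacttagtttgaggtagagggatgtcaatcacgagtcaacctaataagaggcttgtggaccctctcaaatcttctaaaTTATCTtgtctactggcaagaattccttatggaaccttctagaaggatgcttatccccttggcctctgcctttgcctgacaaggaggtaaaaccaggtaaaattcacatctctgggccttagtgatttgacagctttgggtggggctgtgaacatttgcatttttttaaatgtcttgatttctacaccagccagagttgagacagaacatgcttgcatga
Cxcr4 downstream, 21.9 kb, chr1:128570262-128570561: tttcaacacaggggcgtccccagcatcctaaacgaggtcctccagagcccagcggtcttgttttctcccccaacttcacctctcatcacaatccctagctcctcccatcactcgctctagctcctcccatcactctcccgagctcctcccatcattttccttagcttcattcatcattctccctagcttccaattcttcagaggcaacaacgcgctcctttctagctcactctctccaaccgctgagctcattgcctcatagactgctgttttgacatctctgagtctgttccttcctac
Cxcr5 upstream, 41.6 kb, chr9:44567876-44568175: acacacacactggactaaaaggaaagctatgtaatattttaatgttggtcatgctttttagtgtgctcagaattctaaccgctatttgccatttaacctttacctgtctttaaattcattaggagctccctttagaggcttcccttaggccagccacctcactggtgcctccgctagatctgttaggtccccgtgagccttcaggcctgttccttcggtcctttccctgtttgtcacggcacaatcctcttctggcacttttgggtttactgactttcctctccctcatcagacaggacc
Ccr1 downstream, 26.3 kb, chr9:123942288-123942587: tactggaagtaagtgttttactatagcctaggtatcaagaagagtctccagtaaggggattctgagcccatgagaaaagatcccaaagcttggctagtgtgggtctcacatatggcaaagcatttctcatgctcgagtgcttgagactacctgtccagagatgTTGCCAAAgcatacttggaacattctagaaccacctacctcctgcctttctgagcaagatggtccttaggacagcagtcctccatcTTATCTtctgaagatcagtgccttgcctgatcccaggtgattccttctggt
Cxcr2 intron, 2.8 kb, chr1:74156635-74156934: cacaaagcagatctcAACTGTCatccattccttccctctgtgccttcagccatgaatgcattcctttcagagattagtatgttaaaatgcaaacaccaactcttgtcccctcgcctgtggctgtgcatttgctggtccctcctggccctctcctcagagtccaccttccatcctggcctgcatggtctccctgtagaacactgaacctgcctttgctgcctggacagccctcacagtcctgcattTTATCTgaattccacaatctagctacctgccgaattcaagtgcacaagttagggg
The motifs were GAGGAAG for PU.1 and other ETS factors, TGTGGTT for RUNX factors, AGATAA for factors of the GATA family, AACTGNC for MYB, TTGCNNAA for CEBP factors, GAAANNGAA for IRF factors, GGGNNTTTC for NF-κB, and TGANTCA for AP-1, where N is any base. The GATA letters were in 4 of the 7 windows, namely both Cxcr4 upstream windows, the Ccr1 window, and the Cxcr2 window. Over all 29659 WT H3K27ac summits, 9.35% of windows of this length held them. The MYB letters were in the Cxcr2 window (14.4% of all windows), the CEBP letters in the Ccr1 window (8.98%), and the NF-κB letters in the Cxcr4 window at 13.5 kb (4.79%). The PU.1/ETS letters (14.4% of all windows), RUNX (5.58%), IRF (8.13%), and AP-1 (6.83%) were in none of the 7. The windows were picked by hand and a match is a run of letters, not a measured binding site. The Cxcr4 start window had a GC content of 62.7% and the Cxcr4 windows at 13.5 and 15.7 kb had 43.7% and 42.7%.

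H3K27ac peaks near the 9 genes numbered 50 in WT, 25 in Ep300Δ/Δ, 26 in Tet2-/-, and 18 in Ep300Δ/ΔTet2-/-. WT stood highest and the double mutant lowest. These were 0.169%, 0.110%, 0.106%, and 0.0982% of the peaks of their lists, so the share of the list near these genes was lower in each mutant than in WT. The H3K27ac bases covered in the windows came to 28.4, 13.4, 15.5, and 9.97 kb in the same order. H3K4me1 peaks numbered 166, 127, 150, and 130, with covered lengths of 116, 92.2, 125, and 97.9 kb, and H3K4me3 peaks numbered 28, 24, 33, and 29, with 26.7, 22.1, 28.3, and 23.5 kb. In proportion to WT, for neither methylation mark was a mutant as far below as for H3K27ac. The H3K4me1 peaks were 0.155%, 0.140%, 0.153%, and 0.139% of their lists, so this share was also lower in each mutant than in WT. For H3K4me3 it was 0.107%, 0.0960%, 0.119%, and 0.106%.

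**Figure D1:**
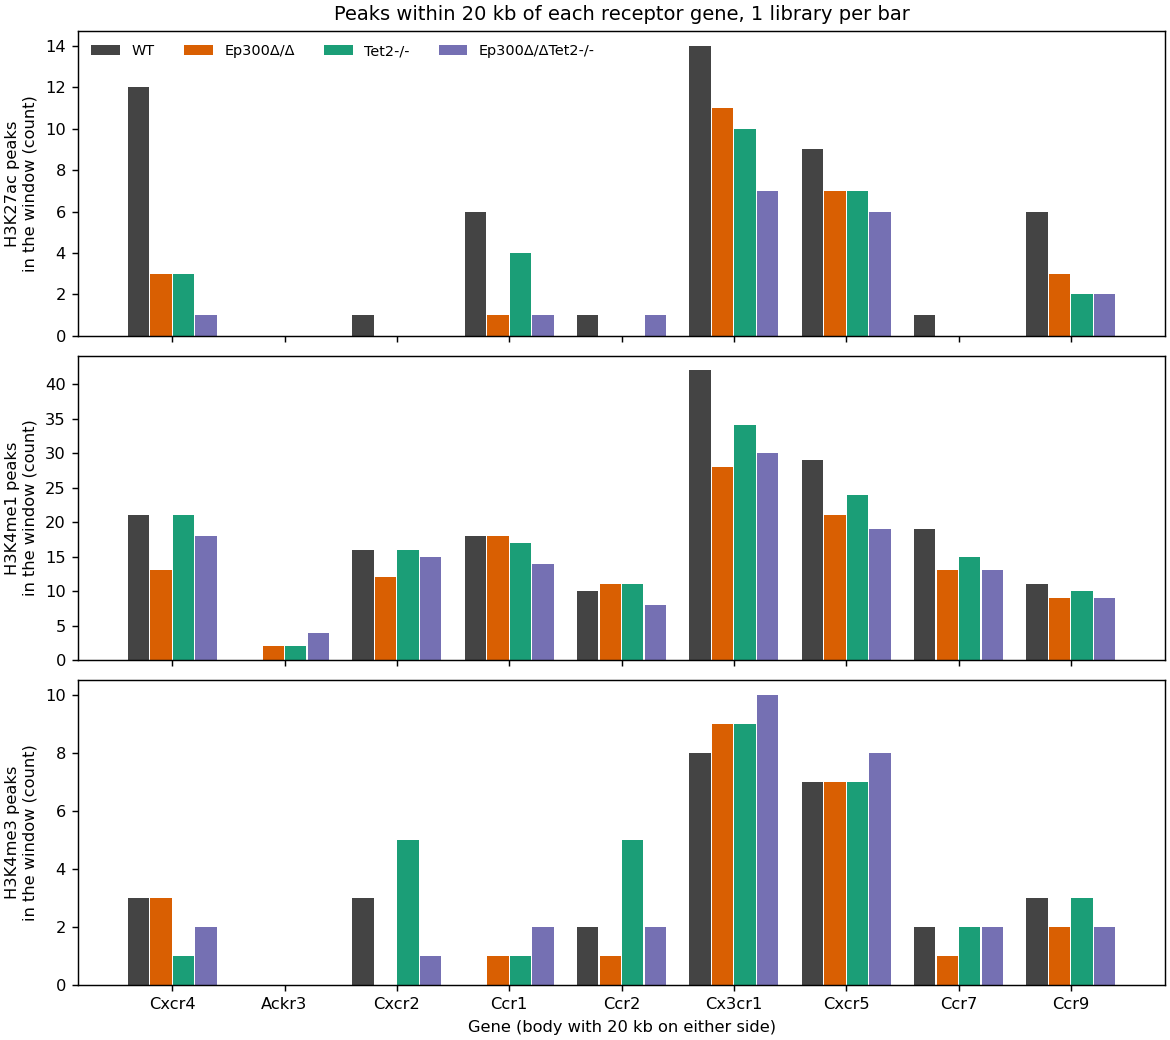
Peaks of H3K27ac, H3K4me1, and H3K4me3 (count, y axis) in the window of each receptor gene (x axis) in the 4 genotypes, 1 library per bar, with no error bars because there are no replicates. Cxcr4 goes from 12 H3K27ac peaks in WT to 3, 3, and 1, while its H3K4me1 bars stay between 13 and 21.

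The windows are not equally specific. In GENCODE, transcripts that read through neighboring genes stretch Cx3cr1 to 168 kb and Ccr9 to 106 kb, and a distant upstream start stretches Cxcr5 to 50.1 kb, whereas the RefSeq bodies are 19.6, 16.2, and 14.7 kb. The long windows take in the starts of Wdr48, Gorasp1, Ttc21a, Csrnp1, and Xirp1 (Cx3cr1), of Lztfl1 and Slc6a20a (Ccr9), and of Bcl9l (Cxcr5). Of the 50 H3K27ac peaks of WT, 12 lay at the start of another gene. With RefSeq bodies the H3K27ac counts were 32, 13, 13, and 7, again with WT highest and the double mutant lowest. Distances below are from the RefSeq start of each gene.

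To ask which regions the deletion of Ep300 left without a call, the lists of 2 genotypes were merged, and a region was lost when it had a peak in the first list and none in the second. From WT to Ep300Δ/Δ, 29 of 49 H3K27ac regions near the 9 genes were lost (59.2%, interval 44.2% to 73.0%), while 39.7% of all H3K27ac regions were. On the Tet2-null background, from Tet2-/- to Ep300Δ/ΔTet2-/-, 12 of 26 were lost (46.2%, interval 26.6% to 66.6%, all regions 37.8%). The interval lay above the share of all regions in the first comparison and held it in the second. Neither reading was fixed: the interval lay above in 8 of 10 alternative settings for the first and in 3 of 10 for the second, among them lists of equal size (47.6%, interval 25.7% to 70.2%, all regions 23.5%). A difference between the backgrounds was not tested. Gains were few: 2 of 22 regions of Ep300Δ/Δ had no WT peak (9.09%, all regions 12.8%), and 2 of 16 regions of the double mutant had no Tet2-/- peak (12.5%, all regions 15.0%). Both counts are small and turned with the processing. The former was 2 of 13 with RefSeq bodies (15.4%, all regions 12.8%). The latter was 5 of 16 with lists of equal size (31.2%, all regions 21.9%) and 2 of 7 with RefSeq bodies (28.6%, all regions 15.0%). Within gene bodies alone, 8 of 21 regions were lost from WT to Ep300Δ/Δ (38.1%), near the share of all regions, and without the Cxcr4 window it was 19 of 37 (51.4%). The intervals of both, 18.1% to 61.6% and 34.4% to 68.1%, held the share of all regions. In the Ep300Δ/Δ list 7.17% of H3K27ac peaks had a q above the stated threshold of 0.05, against 0.780% to 0.900% in the other genotypes, and the part of this in the results was not tested.

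The regions were also split by position. Away from transcript starts, H3K27ac regions were lost more often throughout the genome, and 29 of the 49 WT regions near these genes were of that kind. Of those, 19 were lost from WT to Ep300Δ/Δ (65.5%), close to 62.5% of all such regions. Of the 20 regions within 3 kb of a transcript start, 10 were lost (50%, interval 27.2% to 72.8%), against 26.5% of all such regions. From Tet2-/- to Ep300Δ/ΔTet2-/-, 7 of 13 regions away from starts (53.8%, all such regions 61.9%) and 5 of 13 at starts (38.5%, all such regions 26.8%) were lost. In the first comparison the interval of the regions at starts lay above the share of all such regions, and that of the regions away from starts (45.7% to 82.1%) held it. In the second, both intervals (13.9% to 68.4% at starts, 25.1% to 80.8% away from them) held the share of all such regions.

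The loss of Tet2 was followed in the same way. From WT to Tet2-/-, 23 of 48 H3K27ac regions were lost (47.9%, interval 33.3% to 62.8%, all regions 35.6%), and 1 of 26 was gained (3.85%, interval 0.0973% to 19.6%, all regions 20.3%). With lists of equal size the gain was 3 of 21 (14.3%, interval 3.05% to 36.3%, all regions 20.7%) and with −log10 q of at least 5 it was 2 of 22 (9.09%, interval 1.12% to 29.2%, all regions 17.2%), so both intervals then held the share of all regions. The interval of this gain lay below that share in 3 of 10 alternative settings, and the interval of the loss lay above it in 4 of 10. Without the Cxcr4 window the loss was 14 of 36 (38.9%, interval 23.1% to 56.5%), near the share of all regions. From Ep300Δ/Δ to Ep300Δ/ΔTet2-/-, 13 of 25 were lost (52.0%, interval 31.3% to 72.2%, all regions 31.2%, with the interval above in 4 of 10 alternative settings) and 5 of 17 gained (29.4%, all regions 18.5%). In the first of these comparisons, 6 of 19 regions at starts were lost (31.6%, interval 12.6% to 56.6%, all such regions 24.1%). Away from starts it was 17 of 29 (58.6%, interval 38.9% to 76.5%, all such regions 55.3%). In the second, 9 of 15 at starts were lost (60%, interval 32.3% to 83.7%, all such regions 24.2%). Away from starts it was 4 of 10 (40.0%, interval 12.2% to 73.8%, all such regions 51.6%). The interval of the 9 of 15 lay above the share of all such regions, and the other intervals held it. The comparisons share libraries, the WT list above all, so their values are not independent.

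**Figure D2:**
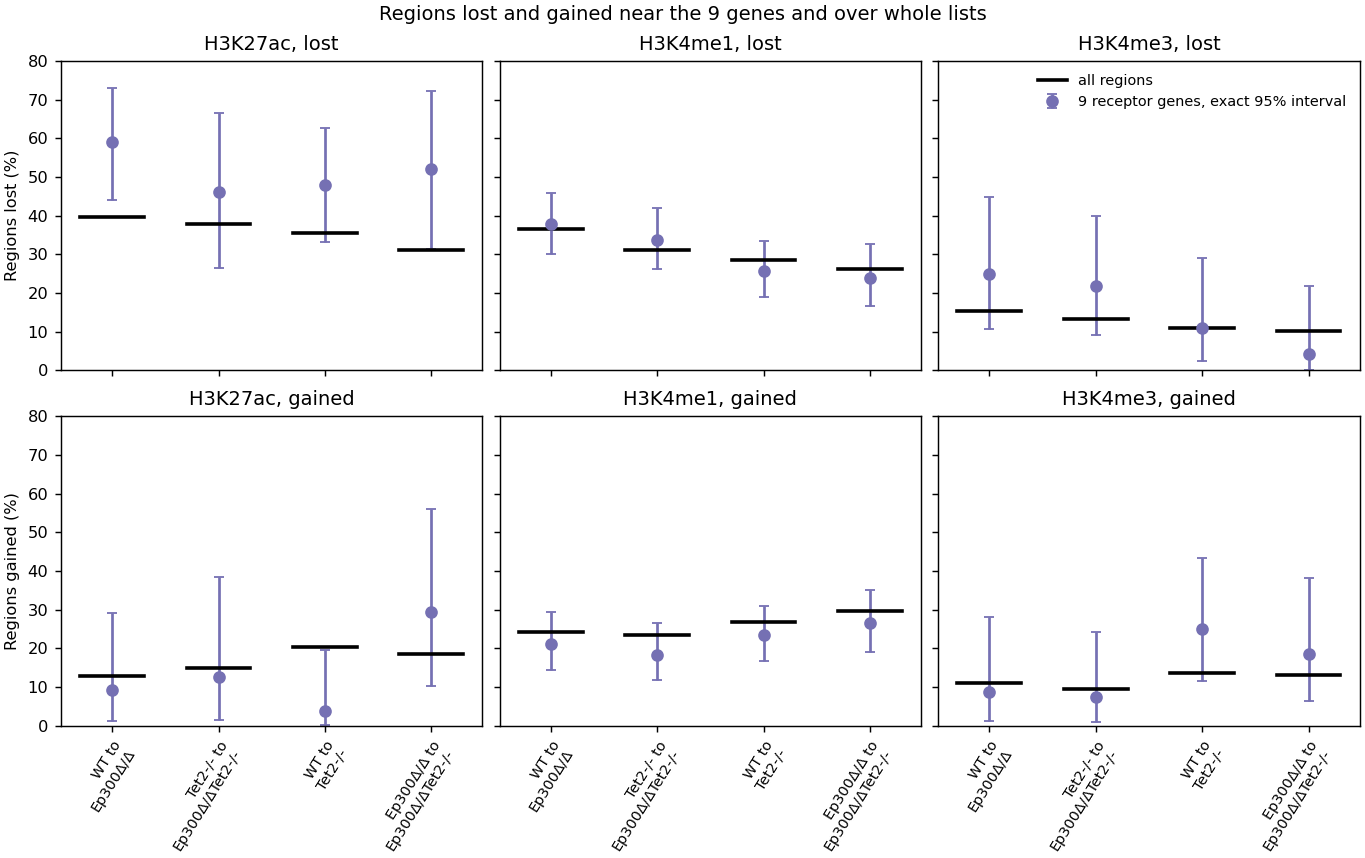
Regions lost (top row) and gained (bottom row) in percent (y axis) for the 4 comparisons of genotypes (x axis) and the 3 marks. Points are the 9 receptor genes with exact 95% intervals, and black lines are all regions of the lists, for example 59.2% against 39.7% for H3K27ac from WT to Ep300Δ/Δ.

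When all 4 lists of H3K27ac were merged, 47 regions near these genes held a WT peak. Of these, 11 were in all 4 lists (23.4%, interval 12.3% to 38.0%), while 44.8% of all WT regions were. In no other list were 19 of the 47 (40.4%, interval 26.4% to 55.7%), while 26.6% of all WT regions were. Cxcr4 alone supplied 9 of these 19 regions, Ccr9 had 3, and Ccr1 and Cx3cr1 had 2 each. No H3K27ac region was particular to the double mutant.

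**Figure D3:**
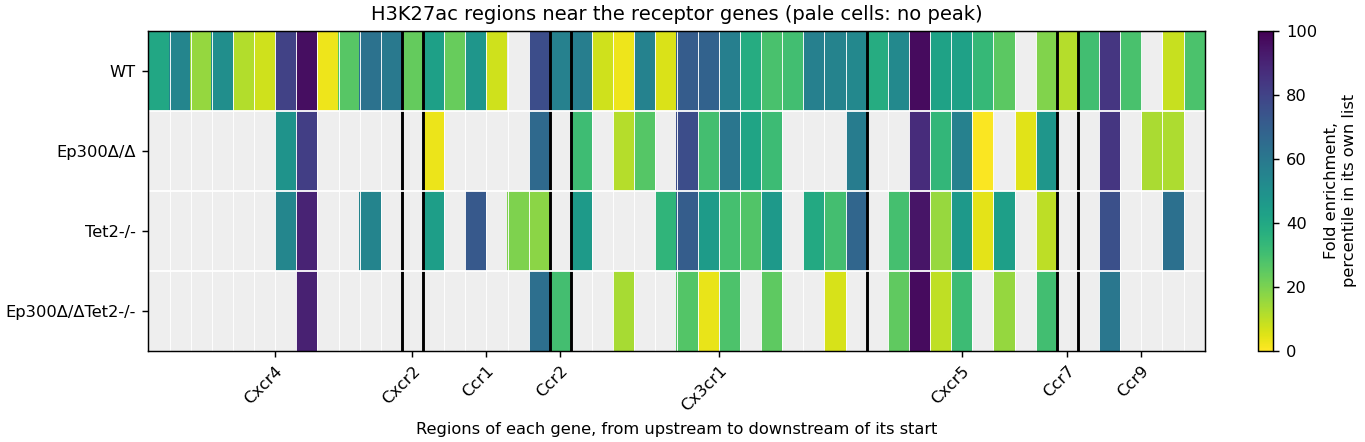
The 50 H3K27ac regions of the receptor genes (x axis, ordered from upstream to downstream of each start) in the 4 lists (y axis), colored by the percentile of the fold enrichment in its own list, with pale cells for no peak. Most of the Cxcr4 columns are filled in WT only, and the dark columns at the Cxcr4 start and upstream of Cxcr5 are filled in all 4 lists.

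Regions that lost H3K27ac mostly still had H3K4me1. Of the 29 regions lost from WT to Ep300Δ/Δ, 21 overlapped an H3K4me1 peak in Ep300Δ/Δ (72.4%), about the same as the 73.5% of all lost regions. From Tet2-/- to Ep300Δ/ΔTet2-/- it was 11 of 12 (91.7%, all lost regions 71.9%), from WT to Tet2-/- 18 of 23 (78.3%, all lost regions 75.8%), and from Ep300Δ/Δ to Ep300Δ/ΔTet2-/- 11 of 13 (84.6%, all lost regions 72.0%). From WT to Ep300Δ/Δ the median percentile of fold enrichment in the WT list was 30.2 for the lost and 52.8 for the kept regions of these genes, and over all regions it was 26.6 and 69.0. The lost regions were also the lower ones from WT to Tet2-/- (28.3 and 53.2) and from Ep300Δ/Δ to Ep300Δ/ΔTet2-/- (26.5 and 51.9). From Tet2-/- to Ep300Δ/ΔTet2-/- the lost and kept regions of these genes were nearly level (44.8 and 44.4), while over all regions the medians were 26.3 and 68.2.

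Among the receptors of Cxcl12, Cxcr4 (chr1:128588199-128592293, minus strand), the main retention receptor of the marrow, had the clearest pattern. Its window held 12 H3K27ac peaks in WT, 3 in Ep300Δ/Δ, 3 in Tet2-/-, and 1 in Ep300Δ/ΔTet2-/-. In WT the count was higher than in 98.5% of protein-coding genes, and in the double mutant it was higher than in 41.4% of them, those with no peak. The peak just inside the gene, shown above as the Cxcr4 start window, was present in all 4 lists. Its fold enrichment was 30.7 in WT (percentile 96.1), 11.8 in Ep300Δ/Δ (81.6), 18.8 in Tet2-/- (90.0), and 19.9 in Ep300Δ/ΔTet2-/- (90.7), so no list had it below a percentile of 81.6. A neighbor immediately upstream of the start was called in all lists but that of the double mutant, with folds of 13.3, 5.80, and 7.05.

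The other Cxcr4 regions lay outside the gene. One weak WT peak was 4.8 kb from the start (fold 3.05, percentile 2.54). Upstream, 6 peaks between 5.0 and 16.7 kb from the start were called in WT and in no other genotype. Their folds ran from 3.54 to 7.25 and their percentiles from 7.07 to 54.5, so they belonged to the weak and middle part of the WT list. Downstream, at 21.1 to 22.3 kb, WT had 3 peaks with folds of 4.79, 8.40, and 7.91, and the middle one was also called in Tet2-/- (fold 7.15, percentile 55). Neither genotype with deleted Ep300 had a peak there. In all, 10 of 12 regions were lost from WT to Ep300Δ/Δ (83.3%). Among 3720 protein-coding genes with 5 or more WT regions the median was 35.7%, and 2.34% of them lost as large a share as Cxcr4 or more. From WT to Tet2-/- it was 9 of 12 (75%, median of 3539 genes 33.3%), and 3.67% of genes lost as large a share. With peaks of −log10 q of at least 5 in both lists, 7 WT regions remained, of which 5 were lost in Ep300Δ/Δ and 4 in Tet2-/-. Under this setting 45.8% and 29.8% of all regions were lost.

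**Figure D4:**
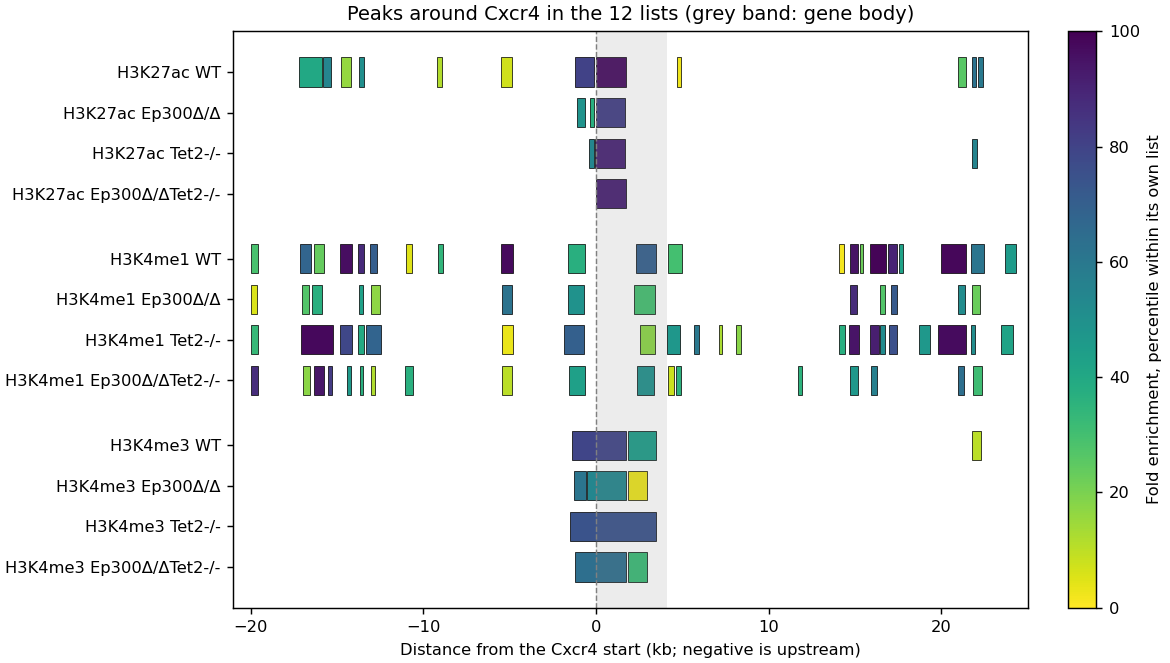
Peaks around Cxcr4 in the 12 lists (y axis) by distance from the gene start in kb (x axis, negative is upstream), colored by the percentile of the fold enrichment in its own list, with the gene body as a grey band. The peaks 5.0 to 16.7 kb upstream appear for H3K27ac in WT only, whereas H3K4me1 peaks lie at some of the same places in all genotypes.

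H3K4me1 around Cxcr4 was retained more widely, with 21, 13, 21, and 18 peaks in WT, Ep300Δ/Δ, Tet2-/-, and Ep300Δ/ΔTet2-/-. Of the 10 H3K27ac regions lost in Ep300Δ/Δ, 6 still overlapped an H3K4me1 peak there (all lost regions 73.5%). Of the 9 lost in Tet2-/-, 7 did (all lost regions 75.8%). Nothing particular to Cxcr4 is read from these shares. The H3K4me1 peak 21.1 kb downstream had folds of 10.3 in WT and 11.1 in Tet2-/-, and of 4.61 and 5.36 in Ep300Δ/Δ and the double mutant, at percentiles of 98.2, 97.1, 51.7, and 64.0. The H3K4me3 peak over the start was in all 4 lists, with folds of 47.8, 24.8, 30, and 20.5 (percentiles 79.3, 61.3, 74.6, and 63.7). The promoter of Cxcr4 thus had all 3 marks within 3 kb in each genotype.

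Ackr3 (chr1:90203980-90216751), an atypical receptor that binds Cxcl12 and takes it up without G protein signaling, had no H3K27ac and no H3K4me3 peak in any genotype. The median coding gene had 1 H3K27ac peak in each list, and 37.5% of genes had none in WT. H3K4me1 peaks numbered 0 in WT, 2 in Ep300Δ/Δ, 2 in Tet2-/-, and 4 in Ep300Δ/ΔTet2-/-. One of them, at 0.2 kb from the start, was called in the 3 mutant lists with folds of 5.12, 2.27, and 4.23.

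Cxcr2 (chr1:74153989-74161246), the neutrophil receptor for Cxcl1 and Cxcl2, had 1 H3K27ac peak in WT, at 2.8 kb in an intron, and none in the mutants. This peak, shown above as the Cxcr2 window, was weak in WT, with a fold of 4.62 and a percentile of 23.8. H3K4me3 peaks at Cxcr2 numbered 3 in WT, 0 in Ep300Δ/Δ, 5 in Tet2-/-, and 1 in Ep300Δ/ΔTet2-/-. For H3K4me3, both genotypes with deleted Ep300 had fewer peaks than their counterparts. At the start itself the H3K4me3 folds were 4.12 in WT, 2.86 in Tet2-/-, and 3.11 in the double mutant, at percentiles of 7.95, 1.44, and 3.90, so the calls were near the threshold. H3K4me1 peaks numbered 16, 12, 16, and 15.

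Of the receptors of myeloid cells, Ccr1 (chr9:123962124-123968692, minus strand), which binds Ccl3 and Ccl5, had 6 H3K27ac peaks in WT, 1 in Ep300Δ/Δ, 4 in Tet2-/-, and 1 in Ep300Δ/ΔTet2-/-. The peak at the start (0.2 kb, fold 4.57, percentile 23.1) was called in WT only. A region 17.2 kb downstream had folds of 6.44 in WT and 10.4 in Tet2-/- and no peak in either genotype with deleted Ep300. The region 26.3 kb downstream, shown above, was in all 4 lists with folds of 11.9, 7.89, 4.13, and 8.83, although the Ep300Δ/Δ peak ended before the edge of the window and is not among the counted peaks. From WT to Ep300Δ/Δ, 4 of 6 regions were lost (66.7%), and 9.73% of the 3720 coding genes with 5 or more WT regions lost as large a share. The H3K4me3 peak at the start had the opposite pattern to the H3K27ac peak, being absent in WT and called in the 3 mutants with folds of 4.20, 8.10, and 4.17. H3K4me1 peaks numbered 18, 18, 17, and 14.

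Ccr2 (chr9:124101950-124113557), the Ccl2 receptor of monocytes, had a single H3K27ac region, 1.6 kb from the start in an exon. It was called in WT (fold 7.42, percentile 56.1) and in Ep300Δ/ΔTet2-/- (fold 5.20, percentile 30) and in neither single mutant. The H3K4me3 peak at 0.4 kb was in all 4 lists with folds of 6.86, 13.3, 21.8, and 18.9, and its percentile was lowest in WT (27.2) and 47.1, 61.6, and 60.7 in the mutants. The strongest WT peak of H3K4me3 at this start lay at 1.6 kb (fold 14.7, percentile 47.7). By the strongest start peak, WT was thus level with Ep300Δ/Δ. H3K4me3 peaks numbered 2, 1, 5, and 2, and H3K4me1 peaks 10, 11, 11, and 8.

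Cx3cr1 (chr9:119901616-120069879, minus strand), the fractalkine receptor of monocytes and their progenitors, had 14, 11, 10, and 7 H3K27ac peaks, but its long window holds many starts of other genes. With the RefSeq body the counts were 4 in WT, 3 in Ep300Δ/Δ, 1 in Tet2-/-, and 1 in Ep300Δ/ΔTet2-/-. The peak at the Cx3cr1 start had folds of 7.57 in WT, 4.50 in Ep300Δ/Δ, and 6.14 in Tet2-/- (percentiles 57.2, 30.9, and 45.7) and was not called in the double mutant. H3K4me3 at the same start was called in all 4 lists, with folds of 7.21, 4.97, 5.16, and 3.53 and percentiles of 29.1, 17.0, 18.5, and 7.17, WT highest and the double mutant lowest. The H3K4me1 peak 0.5 kb upstream of the start had percentiles of 90.2, 83.1, 94.2, and 18.9. The double mutant was thus lowest for all 3 marks at this start. H3K4me1 at 3.7 kb inside the gene ran the other way, with percentiles of 17.7, 60, 81, and 97.1. Elsewhere in the window, H3K27ac and H3K4me3 lay at Csrnp1 and at Gorasp1 and Ttc21a in all 4 lists.

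Cxcr5 (chr9:44511787-44561877, minus strand), the Cxcl13 receptor that leads B cells into follicles, had 9, 7, 7, and 6 H3K27ac peaks in its window, and 4, 4, 4, and 3 in the window of its RefSeq body. Of the wider window, 4 of its 8 WT regions were in all 4 lists. The strongest, 41.6 kb upstream of the RefSeq start, outside any gene and outside the RefSeq window, had folds of 33.2, 14.4, 24.0, and 31.5. Its percentiles of 96.9, 87.2, 94.4, and 97.0 placed it with the Cxcr4 start peak among the strongest regions near these genes. From WT to Ep300Δ/Δ, 3 of 8 regions were lost (37.5%, median of the same 3720 genes 35.7%), and from WT to Tet2-/- 1 of 8 (12.5%, median of 3539 genes 33.3%). With −log10 q of at least 5 in both lists it was 5 of 8 and 3 of 8, where 45.8% and 29.8% of all regions were lost. No H3K27ac or H3K4me3 peak lay within 3 kb of any Cxcr5 start in any genotype. H3K4me3 peaks numbered 7, 7, 7, and 8, and the highest, with folds of 35.2, 19.6, 27.5, and 19.9, lay 16.3 kb downstream of the start, within Bcl9l. H3K4me1 peaks numbered 29, 21, 24, and 19.

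Ccr7 (chr11:99144196-99155077, minus strand), the Ccl19 and Ccl21 receptor that leads lymphocytes and dendritic cells to lymph nodes, had 1 H3K27ac peak in WT, 7.8 kb upstream, and none in the mutants. With a fold of 3.85 and a percentile of 11.2 it was among the weak peaks of the WT list, and H3K4me1 was called at this site in all 4 genotypes. The H3K4me3 peak at the start had folds of 6.42 in WT, 5.96 in Tet2-/-, and 3.83 in Ep300Δ/ΔTet2-/- and was not called in Ep300Δ/Δ. H3K4me1 peaks numbered 19, 13, 15, and 13.

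Ccr9 (chr9:123678439-123784330), the Ccl25 receptor of thymus-seeding progenitors and gut-homing T cells, had 6, 3, 2, and 2 H3K27ac peaks, of which 3, 2, 1, and 0 lay in the window of the RefSeq body. The peak 2.3 kb from the start was called in WT (fold 3.64), Ep300Δ/Δ (3.46), and Tet2-/- (8.36, percentile 63.2) and not in the double mutant. The region that all 4 lists shared, with folds of 15.3, 12.7, 11.3, and 8.30, was at the start of Lztfl1 and cannot be given to Ccr9 alone. H3K4me3 at the Ccr9 start was called in WT only (fold 4.79, percentile 13). H3K4me1 peaks numbered 11, 9, 10, and 9.

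**Figure D5:**
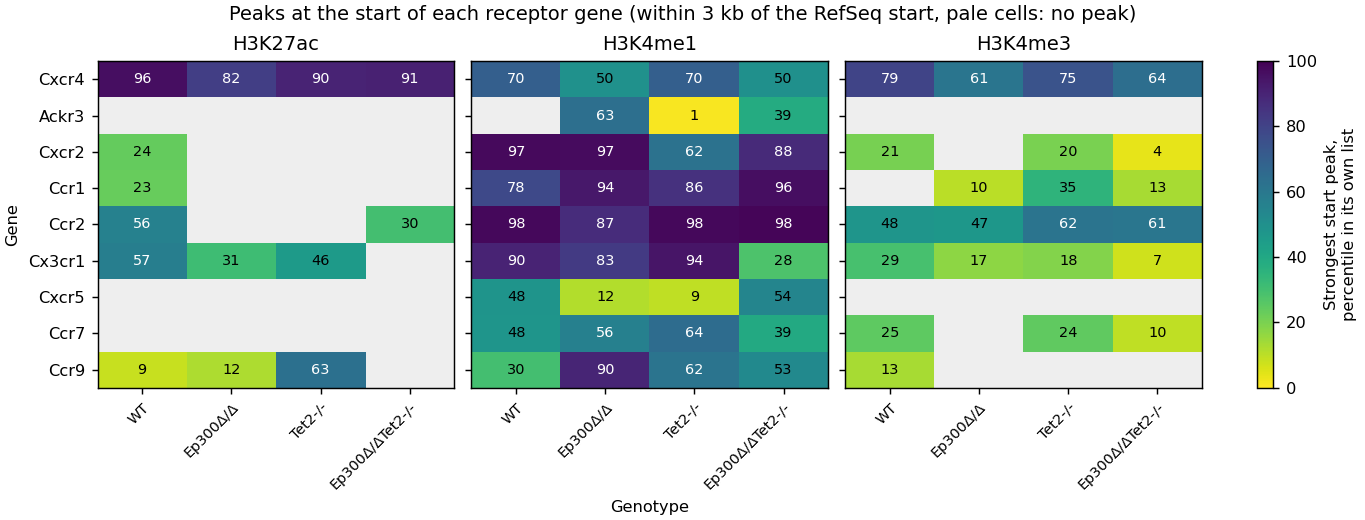
Percentile, within its own list, of the strongest peak within 3 kb of the RefSeq start of each gene (y axis) in the 4 genotypes (x axis) for the 3 marks, with pale cells for no peak. Cxcr4 has H3K27ac at its start in all 4 genotypes, and H3K4me1 is present in nearly all cells.

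Counted over every annotated start of a gene, promoter peaks of H3K27ac were found at 6 of the 9 genes in WT, 3 in Ep300Δ/Δ, 3 in Tet2-/-, and 2 in Ep300Δ/ΔTet2-/-. Over all protein-coding genes the shares were 47.3%, 44.9%, 46.4%, and 43.1%. When each list was limited to the same number of its strongest peaks, the counts were 3, 2, 3, and 2, so that WT no longer stood above Tet2-/-. Cxcr2, Ccr1, and Ccr2 had the call in WT and in neither single mutant. The double mutant had it at Cxcr4 and Ccr2, and lacked it at Cx3cr1 and Ccr9, which both single mutants had kept. H3K4me1 promoter peaks were found at 8, 9, 9, and 9 of the genes (all genes 62.0%, 62.2%, 61.3%, and 62.7%), Ackr3 in WT being the single one without. H3K4me3 promoter peaks were found at 6, 5, 7, and 7 (all genes 61.9%, 63.1%, 62.3%, and 62.6%), Ccr9 being counted in each list through its distant start at Slc6a20a.

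For both methylation marks, the shares of regions lost and gained near these genes had, with the windows used here, intervals that held the shares of all regions. For H3K4me1, 59 of 156 regions were lost from WT to Ep300Δ/Δ (37.8%, all regions 36.7%), 50 of 148 from Tet2-/- to Ep300Δ/ΔTet2-/- (33.8%, all regions 31.1%), 39 of 151 from WT to Tet2-/- (25.8%, all regions 28.6%), and 29 of 121 from Ep300Δ/Δ to Ep300Δ/ΔTet2-/- (24.0%, all regions 26.2%). The gains in the same order were 21.1%, 18.3%, 23.3%, and 26.4%, and over all regions 24.1%, 23.4%, 26.8%, and 29.5%. Of the 147 WT regions of H3K4me1, 81 were in all 4 lists (55.1%, all regions 50.3%) and 24 in WT only (16.3%, all regions 16.4%).

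For H3K4me3, 7 of 28 regions were lost from WT to Ep300Δ/Δ (25.0%, interval 10.7% to 44.9%, all regions 15.4%), of which 3 were at Cxcr2. From Tet2-/- to Ep300Δ/ΔTet2-/- it was 7 of 32 (21.9%, interval 9.28% to 40.0%, all regions 13.3%), of which 4 were at Cxcr2 and 3 at Ccr2. With the loss of Tet2, 3 of 27 regions were lost from the WT list (11.1%, all regions 11.1%) and 1 of 23 from the Ep300Δ/Δ list (4.35%, all regions 10.3%). Gains were 2 of 23 (8.70%, all regions 11.1%) and 2 of 27 (7.41%, all regions 9.45%) with the deletion of Ep300, and 8 of 32 (25.0%, interval 11.5% to 43.4%, all regions 13.6%) and 5 of 27 (18.5%, all regions 13.2%) with the loss of Tet2. The losses with the deletion of Ep300 depended on the assignment: with RefSeq bodies they were 43.8% (interval 19.8% to 70.1%) on the WT and 36.8% (interval 16.3% to 61.6%) on the Tet2-null background, above the shares of all regions. The gains from WT to Tet2-/- likewise had an interval above the share of all regions (13.6%) with RefSeq bodies (36.8%, interval 16.3% to 61.6%), the nearest start (32.0%, interval 14.9% to 53.5%), and windows of 50 kb (25.5%, interval 13.9% to 40.3%). Of the 8 gains in Tet2-/-, 3 were at Cxcr2 and 3 at Ccr2. In the merge of 4 lists, 20 of 27 WT regions were in all of them (74.1%, all regions 79.7%) and 3 were in WT only (11.1%, all regions 6.73%).

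The partners of these receptors were followed by promoter peaks, from lists of genes fixed with earlier results of these data known. Of 14 other chemokine receptors, 4 had an H3K27ac promoter peak in WT (Cxcr3, Ccr3, Ccrl2, and Ackr1), 3 in Ep300Δ/Δ, 3 in Tet2-/-, and 1 in Ep300Δ/ΔTet2-/- (Ccrl2). Of 18 chemokine ligands it was 5, 5, 6, and 4, with Ccl3, Ccl4, and Ccl25 among them in WT and in the double mutant. Of 15 genes of receptor signaling, which couple the receptors to movement or switch them off, it was 14, 13, 15, and 15, and Rgs1, a brake on G protein signaling, was the gene without the peak in Ep300Δ/Δ that WT had. Of 9 adhesion genes it was 9, 7, 9, and 7, and Vcam1 was among those without the peak in both genotypes with deleted Ep300. Over all protein-coding genes, the share with an H3K27ac promoter peak went from 47.3% in WT to 43.1% in the double mutant, and nothing particular to these lists is read from their counts.

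Over the 12 lists, the counts of Cxcr4 were nearest to those of Fcgr2b, with a summed absolute difference of 14 peaks where Cxcr4 had 101 in all. The H3K27ac counts of Fcgr2b were 10, 2, 3, and 1. Tmem72 (16) and Ccl6 (18) came next, with H3K27ac counts of 11, 5, 5, and 1 and of 11, 4, 8, and 2. These 3 genes also had their highest H3K27ac count in WT and their lowest in the double mutant. They were picked by these same counts, so this is not a separate result. The nearest to Ccr1 was Tnfrsf8 (a difference of 8 of 83 peaks), the nearest to Cxcr5 was Mbd2 (12 of 151), and the nearest to Cxcr2 was Rnf144a (11 of 69). The measure rests on 12 lists, each from 1 library of unknown depth.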

How the data were processed

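ChIP-Seq libraries of H3K27ac, H3K4me1, and H3K4me3 from Lin- bone marrow cells of 4 genotypes gave 12 peak lists, and 8 further samples (H3 and H3K27me3) were not used as data here. Samples were grouped by the genotype and mark in the labels, where the titles of H3K4me1 and H3K4me3 are shortened and the antibodies identify them. Labels and methods differ on the H3 antibody and on single or paired-end reads (75 bp in the methods).

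Per the labels and methods, the authors used cutadapt 1.15 for trimming, BWA 0.7.13 for alignment to mm10, and Picard against duplicates. Narrow peaks were called with MACS2 2.1.1.20160309 over H3, with a filter on mapping quality and a blacklist, and kept where they recurred in pseudo-replicates of the reads. The deposited lists give a fold ratio over H3, −log10 p-values and q-values, a score, and a summit offset, and the methods describe no scaling of these by the authors to the Drosophila spike-in. The score was not used. The number of peaks rises with the depth of a library, which is unknown. Although the stated threshold is q under 0.05, 13 of the 806 peaks near the 9 genes had a larger q, as did 1630 of the 22727 H3K27ac peaks of Ep300Δ/Δ.

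Peaks were assigned with GENCODE release 21 (GRCm38, the assembly called mm10). Of 591292 peaks, 0 ran past a chromosome end. Lists were merged pairwise, and regions without a shared base (1 bp) in the other list counted as lost or gained. A promoter reached 3000 bp to both sides of a transcript start. Regions were read from the GRCm38 sequence, 150 bp on either side of summits. Intervals used scipy 1.17.1, tables pandas 2.3.3, sequences pysam 0.24.0, and the interval code was checked against bedtools 2.31.1 on simulated lists. All 9 members were named, other genes where their start lies in a window (with exceptions that are not reported here, also among the listed genes), and the 3 nearest genes by summed differences of peak counts. Alternatives for windows, overlap, threshold, list size, and assignment were tried, and RefSeq bodies and the omission of Cxcr4 were added after the values were seen. The members, gene lists, and tests were chosen with earlier results of these data known.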

Additional observations from a re-analysis of the deposited data

Results flagged for a closer look

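In 5 cases a peak count moved one way on one genetic background and the other way on the other, which was not tested because each group had 1 library. For Ccr2, H3K27ac went from 1 peak to 0 with the deletion of Ep300 on the WT background and from 0 to 1 on the Tet2-/- background, so that the changes differed by 2. The same 4 lists give the same difference of 2 for the loss of Tet2. H3K4me1 at Ccr2 went from 10 to 11 peaks and from 11 to 8, so that the changes differed by -4 for the deletion of Ep300 and, from the same lists, by -4 for the loss of Tet2. H3K4me1 at Cx3cr1 went from 42 peaks in WT to 34 in Tet2-/-, and from 28 in Ep300Δ/Δ to 30 in Ep300Δ/ΔTet2-/-, so that the changes with the loss of Tet2 differed by 10. These are differences of a few calls among 12 lists, and the Cx3cr1 window holds the starts of 10 other genes.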

How the results depend on the processing

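The share of H3K27ac regions lost near the 9 genes was above that of all regions in all 4 comparisons under 9 of 10 alternatives, including lists of equal size and RefSeq bodies. Without Cxcr4 it was 51.4% from WT to Ep300Δ/Δ, with an interval (34.4% to 68.1%) that held the share of all regions (39.7%). With gene bodies only it was above in 3 of 4, since it was 38.1% from WT to Ep300Δ/Δ (all regions 39.7%). No paired analysis was possible because each genotype and mark had 1 library. Without replicates, leaving out a library leaves no comparison. Gained shares rest on few regions, and depth, which is unknown, limits what a missing peak can say. The cause of the shifts below was not tested.

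With gene bodies only, gains were 0% for H3K27ac from WT to Tet2-/-, 0% for H3K4me3 from Tet2-/- to Ep300Δ/ΔTet2-/-, and 6.25% for H3K4me3 from Ep300Δ/Δ to Ep300Δ/ΔTet2-/-. With the nearest transcript start, gains of H3K27ac were 0% from WT to Ep300Δ/Δ and 8.33% from Ep300Δ/Δ to Ep300Δ/ΔTet2-/-, and gains of H3K4me3 were 0% from Tet2-/- to Ep300Δ/ΔTet2-/-. With RefSeq bodies, 0% of H3K4me3 regions were lost from Ep300Δ/Δ to Ep300Δ/ΔTet2-/-. When a peak within 500 bp counted as shared, H3K27ac gains from WT to Tet2-/- were 0%, H3K4me1 losses were 23.1%, 25.0%, 15.2%, and 14.9% (all regions 25.1%, 21.3%, 18.7%, and 17.0%; in the order of WT to Ep300Δ/Δ, Tet2-/- to Ep300Δ/ΔTet2-/-, WT to Tet2-/-, and Ep300Δ/Δ to Ep300Δ/ΔTet2-/-), and H3K4me1 gains in all of these but Tet2-/- to Ep300Δ/ΔTet2-/- were 12.2%, 15.8%, and 16.8% (all regions 15.8%, 18.0%, and 20.1%). With −log10 q of at least 5, gains from WT to Ep300Δ/Δ were 0% for H3K27ac and H3K4me3, and those of H3K4me3 from Tet2-/- to Ep300Δ/ΔTet2-/- were 0%. H3K4me1 losses under it were 50.5% from WT to Ep300Δ/Δ, 18.6% from WT to Tet2-/-, and 16.4% from Ep300Δ/Δ to Ep300Δ/ΔTet2-/-, where gains were 39.3%, near or below the shares of all regions (51.0%, 23.6%, 25.2%, and 43.5%). Among peaks above the median fold enrichment of their list, 0% of H3K27ac regions were gained and 0% of H3K4me3 regions lost or gained in any comparison, over 4 to 10 regions near these genes, where the shares of all regions were also low (1.81% to 4.16% for H3K27ac gains, at most 0.137% for H3K4me3). H3K27ac losses there were 30% from WT to Tet2-/- and 25.0% from Ep300Δ/Δ to Ep300Δ/ΔTet2-/- (all regions 11% and 8.82%). H3K4me1 losses there were 25.8%, 15.7%, 13.1%, and 16.2% in the order above (all regions 23.8%, 19.8%, 16.1%, and 15.4%), with gains of 12.2% from WT to Tet2-/- and 17.6% from Ep300Δ/Δ to Ep300Δ/ΔTet2-/- (all regions 16.8% and 18.2%). Promoter counts of H3K27ac were 3, 2, 3, and 2 with lists of equal size (WT, Ep300Δ/Δ, Tet2-/-, and Ep300Δ/ΔTet2-/-), 1 in Ep300Δ/Δ and 1 in Ep300Δ/ΔTet2-/- with −log10 q of at least 5, and 1 in Ep300Δ/ΔTet2-/- with promoters of 1000 bp on either side. Promoter counts of H3K4me3 were 3 in Ep300Δ/ΔTet2-/- with −log10 q of at least 5. With lists of equal size, H3K27ac gains from Tet2-/- to Ep300Δ/ΔTet2-/- were 31.2%, above all regions (21.9%) instead of below. With the nearest transcript start, H3K4me3 losses were 38.1% from WT to Ep300Δ/Δ and 33.3% from Tet2-/- to Ep300Δ/ΔTet2-/-, and with −log10 q of at least 5 the latter were 34.5%, each with an interval above the share of all regions. H3K4me1 gains with windows of 50 kb had intervals below it in 3 comparisons (17.4%, 16.7%, and 20.1%, all regions 24.1%, 23.4%, and 26.8%), as had those from WT to Tet2-/- with lists of equal size (22.1%, all regions 31.0%) and the losses there with the nearest start (19.2%, all regions 28.6%). The limit for a shift was the interval of the value reported or, for promoter counts, 1.5 times either way. Of the planned values 47 passed this limit, as did 1 added value. The other 181 planned and 47 added values did not, among them the H3K27ac gain of 31.2% and the values after it.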
